A study of Rattus norvegicus with 6 samples.

Results

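The 9 genes described here go by the name of activators of the circadian clock and genes that peak opposite in phase to Dbp, the clock output gene of the liver. They were taken by symbol (Arntl, Clock, Npas2, Cry1, Cry2, Nfil3, Rora, Bhlhe40 and Nampt) from a table of 19616 rat genes, and each symbol was found once. RNA was sequenced from liver tissue of 6 male SD rats, 3 in each group, with 1 library per rat. The FL group (rats FL2, FL5 and FL12) received CCl4, a solvent that injures hepatocytes, mixed with olive oil, by intraperitoneal injection of 2 mL/kg 2 times a week for 5 weeks, a model of hepatic fibrosis. The CL group (rats CL5, CL6 and CL7) received olive oil alone in the same volume, so that olive oil was common to all 6 rats. The rats sequenced were chosen from larger groups. Their age is not given in the sources used here, and neither is the time of day at which the livers were taken, which sets the level of most clock transcripts.

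In the liver clock, BMAL1 (encoded by Arntl) pairs with CLOCK or its paralog NPAS2 and binds E-box sequences, which drives the Period, Cryptochrome, Nr1d1, Nr1d2 and Dbp genes. The PER and CRY proteins then block their own activators, while REV-ERB alpha and beta (from Nr1d1 and Nr1d2) compete with ROR receptors at the ROR elements of Arntl, Npas2, Cry1 and Nfil3. NFIL3 represses the D-box sequences that DBP activates, so that transcripts under REV-ERB control peak when those of Dbp and Nr1d1 are low.

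Levels are FPKM, that is, fragments of a gene scaled to the length of its transcript and to the size of the library, and can therefore be compared between genes. Differences between groups are log2 fold changes of FL over CL from limma on log2(FPKM + 0.1), a scale that understates changes of genes with low FPKM. Differentially expressed genes (DEGs) had a Benjamini-Hochberg adjusted p under 0.05 over the 14864 genes tested and at least a 2-fold change. The FPKM of a library summed to 309425 or more (up to 340467) in the CL rats and to 272110 or more (up to 309226) in the FL rats. Read totals were not used. The most frequent low value of the U6 genes in each rat was taken to stand for 1 fragment. By this assumption CL5 was the deepest library, and depths relative to it were 0.656 or more for CL rats and from 0.677 to 0.75 for FL rats.

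All 9 genes were expressed above the limit for testing. Downregulated in the FL group were 4 of them, Arntl, Npas2, Cry1 and Nfil3, whereas 0.935% of all genes tested were downregulated. Upregulated were 2, Cry2 and Bhlhe40, against 9.29% of all genes. Without the limit on the fold change, Rora joined the lower genes, so that 5 were lower (1.94% of all genes) and 2 were higher (16.9% of all genes). The rats of the groups did not overlap for 6 genes that were lower (4.78% of all genes) and 2 that were higher (35.7% of all genes). The genes named as activators or opposite in phase therefore did not move as 1 block, since Cry2 and Bhlhe40 went up while the others had negative fold changes. The median log2 difference of all genes was itself 0.29, against 0.08 after median scaling and -0.04 after quantile normalization. All genes gave 1381 upregulated and 139 downregulated DEGs with FPKM as deposited, and 453 and 231 with quantile normalization. The median of the 9 genes was -0.59, which is -0.88 relative to that of all genes, and each of the 9 kept its direction under both scalings.

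**Figure D1:**
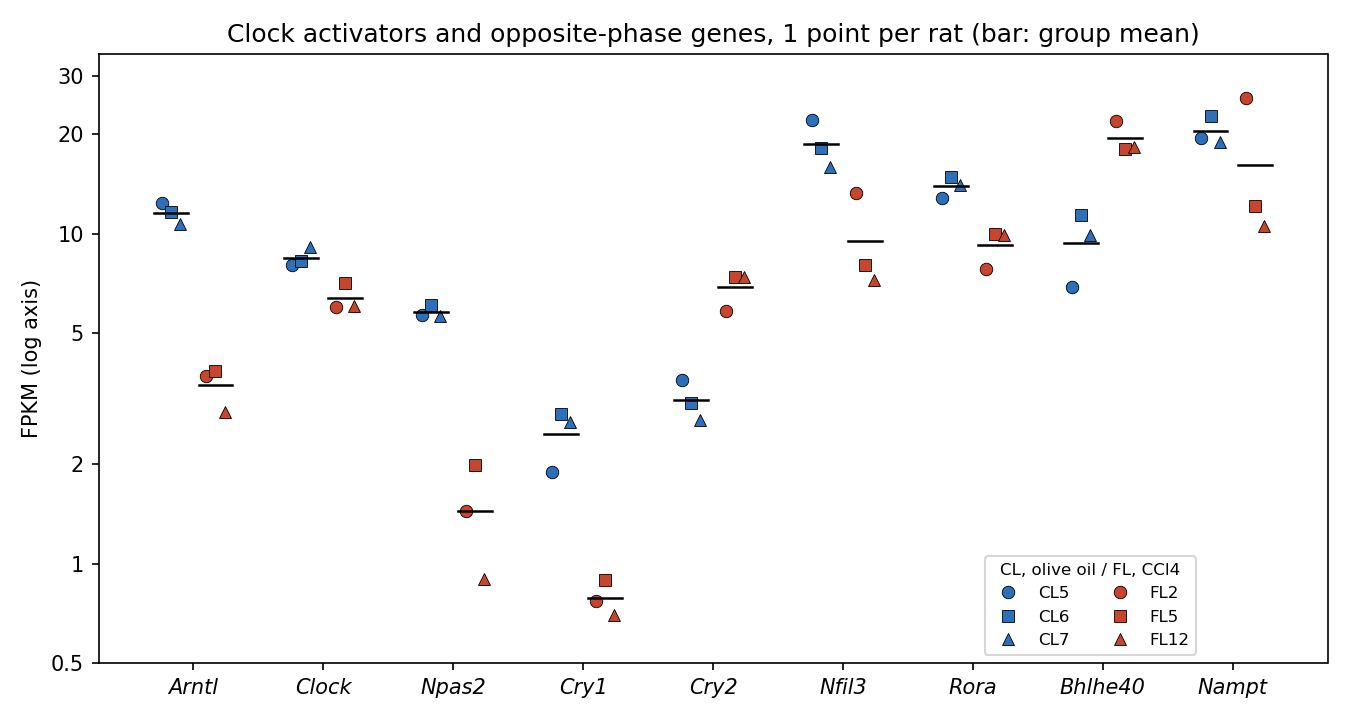
FPKM of the 9 genes in each rat on a log axis, with CL rats in blue, FL rats in red and bars at the group means. The largest gap between the groups is that of Npas2, at 5.61 to 6.09 FPKM in the CL rats and 0.90 to 1.99 FPKM in the FL rats, and Nampt is the gene whose groups overlap.

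Arntl, whose product BMAL1 is the partner that both CLOCK and NPAS2 need, stood at 12.4, 11.6 and 10.7 FPKM (CL5, CL6, CL7) against 3.71, 3.82 and 2.88 FPKM (FL2, FL5, FL12). The 3 FL rats lay close together and far below the 3 CL rats, and even the lowest CL rat was 2.80 times as high as the highest FL rat. Arntl (ENSRNOG00000014448, chromosome 1) averaged 11.6 ± 0.826 FPKM for CL and 3.47 ± 0.514 FPKM for FL (SD over the 3 rats of a group, as in all means below). This made a log2 fold change of -1.72 (standard error 0.15, 95% interval -2.05 to -1.38, limma with Benjamini-Hochberg adjusted p = 0.00164). Only 0.72% of all genes tested had a lower fold change.

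Npas2 (ENSRNOG00000013408, chromosome 9), the paralog of Clock, stood at 5.65, 6.09 and 5.61 FPKM (CL5, CL6, CL7) against 1.44, 1.99 and 0.90 FPKM (FL2, FL5, FL12). The CL rats were nearly alike, the FL rats were spread more widely, and all 3 FL rats were below all 3 CL rats. The means were 5.78 ± 0.266 and 1.44 ± 0.545 FPKM, 4.01 times as high in the CL group. The log2 fold change of -1.99 was the most negative of the 9 genes (standard error 0.26, 95% interval -2.58 to -1.40, limma with Benjamini-Hochberg adjusted p = 0.00434).

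Clock (ENSRNOG00000002175, chromosome 14), which encodes the usual partner of BMAL1, stood at 8.01, 8.25 and 9.11 FPKM (CL5, CL6, CL7) against 6, 7.09 and 6.03 FPKM (FL2, FL5, FL12). The groups did not overlap, but the highest FL rat, FL5, stood close to the lowest CL rat. With means of 8.46 ± 0.578 and 6.37 ± 0.621 FPKM, the log2 fold change was -0.40 (standard error 0.12) and did not pass the threshold (limma, Benjamini-Hochberg adjusted p = 0.0573). It passed with median scaling (-0.63, limma, Benjamini-Hochberg adjusted p = 0.0205), with quantile normalization (-0.66, adjusted p = 0.0220) and when only genes averaging at least 1 FPKM were tested (adjusted p = 0.0498), in a range from 0.0205 to 0.186 over 14 alternatives.

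The activators thus differed in how far apart the groups lay, which was read within each rat as the ratio of Npas2 to Clock and of Arntl to Clock. Such a ratio hardly depends on the scaling between rats, and for the test 0.1 FPKM was added to each level. Npas2 stood at 0.705, 0.738 and 0.616 of Clock in CL5, CL6 and CL7 and at 0.240, 0.281 and 0.149 of it in FL2, FL5 and FL12. Arntl exceeded Clock in each CL rat, by ratios of 1.54, 1.41 and 1.18, and lay below it in each FL rat, at 0.618, 0.539 and 0.478. The groups did not overlap in either ratio. On the log2 scale the FL rats were at -1.59 from the CL rats for Npas2 over Clock and at -1.31 for Arntl over Clock (two-sided exact permutation test, p = 0.1 for each). This is the smallest p that 3 rats against 3 allow, here and for 4 further pairs below, and it stayed 0.1 after Benjamini-Hochberg adjustment over the 6 pairs.

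The cryptochromes, which repress CLOCK and BMAL1, went in opposite directions. Cry1 (ENSRNOG00000006622, chromosome 7), the cryptochrome with a ROR element, stood at 1.90, 2.83 and 2.68 FPKM (CL5, CL6, CL7) against 0.77, 0.89 and 0.70 FPKM (FL2, FL5, FL12). Each FL rat was below 1 FPKM and each CL rat above it, and CL5 was the lowest of the CL rats. The means were 2.47 ± 0.499 and 0.787 ± 0.0961 FPKM, and the log2 fold change was -1.52 (standard error 0.21, 95% interval -2.02 to -1.03, limma with Benjamini-Hochberg adjusted p = 0.00518). A pseudocount of 1 damps low values, and with it the log2 fold change was -0.95 and missed the limit of 2-fold, while its adjusted p from limma was 0.00701, in a range from 0.00439 to 0.0341 over the alternatives.

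Cry2 (ENSRNOG00000007478, chromosome 3) stood at 3.59, 3.06 and 2.73 FPKM (CL5, CL6, CL7) against 5.84, 7.41 and 7.37 FPKM (FL2, FL5, FL12). The order was that opposite to Cry1, with every FL rat above every CL rat and FL2 nearest to the CL group. The means rose from 3.13 ± 0.434 to 6.87 ± 0.895 FPKM, or by 1.11 on the log2 scale (standard error 0.16, 95% interval 0.74 to 1.48, limma with Benjamini-Hochberg adjusted p = 0.00537). The change was under 2-fold with a pseudocount of 1 (0.93), median scaling (0.89) and quantile normalization (0.80), and the adjusted p from limma stayed between 0.00362 and 0.0316 over the 14 alternatives. Within each rat, Cry1 was at 0.529, 0.925 and 0.982 of Cry2 in CL5, CL6 and CL7, and at 0.132, 0.120 and 0.0950 of it in FL2, FL5 and FL12. The cryptochromes were thus near balance in CL6 and CL7, whereas Cry2 dominated in each FL rat. The log2 ratio differed by -2.63 between the groups (two-sided exact permutation test, p = 0.1).

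Rora (ENSRNOG00000027145, chromosome 8) encodes ROR alpha, the activator at ROR elements, and stood at 12.8, 14.8 and 14.1 FPKM (CL5, CL6, CL7) against 7.82, 9.97 and 9.87 FPKM (FL2, FL5, FL12). All FL rats were lower than all CL rats, with FL2 the lowest. The fall from 13.9 ± 1.02 to 9.22 ± 1.21 FPKM passed the adjusted p but not the 2-fold limit (log2 fold change -0.59, standard error 0.13, limma with Benjamini-Hochberg adjusted p = 0.0223). Without CL6, CL7 or FL5 its adjusted p from limma was 0.0768, 0.0823 and 0.0544, although the log2 fold change was -0.55, -0.58 and -0.65. Without the trend of the variance the adjusted p from limma was 0.0520, in a range from 0.00820 to 0.0823. Nr1d1, the gene of its competitor REV-ERB alpha, stood at 6.38, 2.72 and 3.45 FPKM (CL5, CL6, CL7) against 25.3, 33.0 and 15.7 FPKM (FL2, FL5, FL12). Transcripts of the ROR activator were therefore more abundant than those of the repressor in each CL rat and less abundant in each FL rat, with Rora at 2.01, 5.46 and 4.08 times Nr1d1 in the CL rats and at 0.309, 0.302 and 0.630 times in the FL rats. The log2 ratio lay at -3.15 from that of the CL group (two-sided exact permutation test, p = 0.1). For Arntl, a target of both receptors, the ratio to Nr1d1 was 1.94, 4.26 and 3.10 in the CL rats and 0.147, 0.116 and 0.184 in the FL rats, a log2 difference of -4.27 (two-sided exact permutation test, p = 0.1).

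Nfil3 (ENSRNOG00000011668, chromosome 17), also known as E4BP4, encodes the repressor of D-box genes, and stood at 22.1, 18.1 and 15.9 FPKM (CL5, CL6, CL7) against 13.3, 8.02 and 7.24 FPKM (FL2, FL5, FL12). The groups did not overlap, but FL2 lay nearer to CL7 than to the other FL rats. The means fell from 18.7 ± 3.16 to 9.52 ± 3.30 FPKM, and the log2 fold change of -1.01 just reached the 2-fold limit (standard error 0.24, 95% interval -1.55 to -0.46, limma with Benjamini-Hochberg adjusted p = 0.0249). The call rested on most of the rats, since the adjusted p from limma was 0.0823, 0.0699, 0.0576, 0.0976 and 0.0810 without CL5, CL6, CL7, FL5 and FL12, and 0.00514 without FL2. It was 0.0553 without the trend of the variance, and the fold change was under 2-fold with a pseudocount of 1 (-0.94) and without CL5 (-0.88), FL5 (-0.91) or FL12 (-0.84). Without CL6 or CL7 the log2 fold change was no smaller than with all rats (-1.02 and -1.12), although the adjusted p did not pass.

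Set against Dbp, the D-box activator, the difference was much wider. Dbp stood at 0.46, 0.91 and 0.81 FPKM (CL5, CL6, CL7) against 25.6, 27.1 and 31.8 FPKM (FL2, FL5, FL12). Nfil3 was at 48.1, 19.9 and 19.6 times Dbp in the CL rats, and at 0.519, 0.296 and 0.228 times Dbp in the FL rats. The more abundant transcript of the pair was thus Nfil3 in every CL rat and Dbp in every FL rat. The log2 ratio differed by -6.14 between the groups (two-sided exact permutation test, p = 0.1), which was the widest difference of the 6 pairs.

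Bhlhe40 (ENSRNOG00000007152, chromosome 4) encodes DEC1, a repressor that competes for E-boxes and also responds to hypoxia and to growth factors. It stood at 6.87, 11.4 and 9.88 FPKM (CL5, CL6, CL7) against 22.0, 18.0 and 18.3 FPKM (FL2, FL5, FL12). All FL rats were above all CL rats, with FL2 the highest and CL5 the lowest. The rise from 9.38 ± 2.30 to 19.4 ± 2.21 FPKM gave a log2 fold change of 1.07 (standard error 0.19, 95% interval 0.62 to 1.51, limma with Benjamini-Hochberg adjusted p = 0.0106). It was under 2-fold without CL5 (0.86) or FL2 (0.98), with median scaling (0.84), quantile normalization (0.87) and a pseudocount of 1 (just under it), and the adjusted p from limma stayed between 0.00866 and 0.0440 over the alternatives. Of 11 hypoxia-responsive genes found (of 12 listed, without Egln1), 3 were upregulated (9.29% of all genes), Hk2 (1.76), Ndrg1 (1.43) and Adm (1.16 on the log2 scale, limma with Benjamini-Hochberg adjusted p = 0.00435, 0.00531 and 0.0309). Adm was not upregulated with median scaling (0.96, limma, Benjamini-Hochberg adjusted p = 0.0585) or quantile normalization (0.57, adjusted p = 0.195), and its adjusted p ran from 0.0120 to 0.195 over the alternatives. With a pseudocount of 1, Hk2 (0.90) and Adm (0.56) were under 2-fold, which left Ndrg1 alone. No gene of the list was downregulated (0.935% of all genes). At an unadjusted p under 0.05, 4 were higher and 1 lower (31.5% and 4.04% of all genes), and the median was 0.09 against 0.29 for all genes. The median was -0.12 with median scaling and -0.23 with quantile normalization (0.08 and -0.04 for all genes), so its direction depended on the scaling. Vegfa and Ldha, among the more abundant genes of the list, had CL means of 44.8 and 124 FPKM beside FL means of 39.5 and 93.3 FPKM, and did not pass the test, though Ldha did with median scaling (-0.64, limma, Benjamini-Hochberg adjusted p = 0.0280, in a range from 0.0280 to 0.158). The part of hypoxia in the values of Bhlhe40 was not tested.

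Nampt (ENSRNOG00000009754, chromosome 6) encodes the rate-limiting enzyme of NAD salvage, a clock output that links NAD to the sirtuins. It stood at 19.5, 22.8 and 18.9 FPKM (CL5, CL6, CL7) against 25.7, 12.1 and 10.6 FPKM (FL2, FL5, FL12). The groups overlapped, because FL2 was above all 3 CL rats while FL5 and FL12 were below them. The means of 20.4 ± 2.07 and 16.1 ± 8.33 FPKM differed by less than the spread of the FL rats (log2 fold change -0.45, standard error 0.30, limma with Benjamini-Hochberg adjusted p = 0.323). Without FL2 the log2 fold change was -0.84 with an adjusted p of 0.00920 from limma, whereas the adjusted p ran up to 0.690 (without FL12) under the other alternatives.

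FL2 differed from FL5 and FL12 in other values too. It had the highest summed macrophage and neutrophil markers and the lowest summed stellate cell and cycling cell markers of the FL rats, as given below. Its macrophage sum was led by Marco (79.0 FPKM) and Clec4f (66.6 FPKM). The other macrophage markers, Cd68, Csf1r, Adgre1, Cd163 and Mrc1, were higher in FL5 than in FL2. Of the neutrophil markers, S100a8, Cxcr2 and Mpo were highest in FL12. The part of these markers in the value of Nampt was not tested. Of 16 genes for NAD synthesis and use, 15 were found (not Naprt) and 14 tested. None was a DEG with limma in either direction (9.29% of all genes were upregulated and 0.935% downregulated). At an unadjusted p under 0.05 there were 4 higher (31.5% of all genes) and 0 lower (4.04%). By the adjusted p alone, 2 of the 14 were higher (16.9% of all genes) and 0 lower (1.94%), namely Nmnat3 and Sirt3. Nmnat3, an NAD synthase of mitochondria, rose from 2.42 ± 0.192 to 3.81 ± 0.241 FPKM (log2 fold change 0.63, limma with Benjamini-Hochberg adjusted p = 0.0207). Sirt3, a mitochondrial deacetylase that uses NAD, rose from 7.07 ± 0.342 to 11.0 ± 2.30 FPKM (0.61, limma, adjusted p = 0.0404). With median scaling neither passed (limma, Benjamini-Hochberg adjusted p = 0.0747 and 0.221), and over the alternatives the values ran from 0.0141 to 0.250 for Nmnat3 and from 0.0233 to 0.274 for Sirt3. Sirt1, the sirtuin known for deacetylating PER2 and BMAL1, averaged 4.98 ± 0.408 and 4.51 ± 0.206 FPKM with overlapping groups (limma, Benjamini-Hochberg adjusted p = 0.468). The median of the list was 0.21, close to the 0.29 of all genes. With median scaling it was -0.01 and with quantile normalization -0.0006, so its direction depended on the scaling.

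The order of the levels changed between the groups. In the CL group the means ran from Nampt (20.4 FPKM) through Nfil3, Rora, Arntl, Bhlhe40, Clock, Npas2 and Cry2 down to Cry1 (2.47 FPKM). Of neighbours in this order, Nampt and Nfil3, Arntl and Bhlhe40, Bhlhe40 and Clock, and Cry2 and Cry1 overlapped between rats. In the FL group Bhlhe40 (19.4 FPKM) came first, followed by Nampt, Nfil3, Rora, Cry2, Clock, Arntl, Npas2 and Cry1 (0.787 FPKM). There each of the first 4 genes overlapped with the next of them, as did Cry2 and Clock. Arntl thus went from the fourth place, above Clock, to the seventh, below Clock and Cry2, without overlap with Clock in the FL rats.

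Likeness of pattern was measured over the 6 rats as the root mean square difference in log2(FPKM + 0.1), after subtraction of the mean of the CL rats, so 0 would be an identical course and most of the measure reflects the difference between the groups. Among the 9 genes, the nearest to Clock was Rora (0.177), the nearest to Arntl were Cry1 (0.269) and Npas2 (0.284), and the nearest to Cry2 was Bhlhe40 (0.370). Arntl thus lay nearer to genes that fell by a similar amount than to Clock (0.940), the gene of its partner.

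Of 10534 genes that averaged at least 1 FPKM, the one most like Arntl was Ppard, the nuclear receptor PPAR delta (0.120), followed by Chka, a choline kinase (0.194), and Akr1c2 (0.202). Ppard stood at 3.41, 3.27 and 2.40 FPKM (CL rats) against 0.89, 1.06 and 0.71 FPKM (FL2, FL5, FL12), and CL7 and FL12 were the lowest of their groups, as with Arntl. Npas2 was nearest to Akr1c2 (0.156), Insig2 (0.270), whose product retains the SREBP escort protein in the endoplasmic reticulum, and Arntl (0.284). Cry1 was nearest to Ptk6 (0.131), Chka (0.229) and Nrep (0.232). Chka and Akr1c2 therefore each appeared beside a pair of the clock genes.

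The gene nearest to Cry2 was Mfge8, a secreted glycoprotein that marks dying cells for uptake (0.0354). Mfge8 stood at 15.1, 13.5 and 12.4 FPKM (CL5, CL6, CL7) against 24.9, 32.8 and 32.5 FPKM (FL2, FL5, FL12). Lrrk1 (0.0777) and Src (0.0804) followed. Bhlhe40 was nearest to LOC102549173 (0.0684), Gnpda2 (0.0855) and Ssbp4 (0.0926). Clock was nearest to Zfp385b (0.0393), Cd59 (0.0579) and Vamp7 (0.0651), and Rora to Cd164 (0.0598), Zmiz2 (0.0726) and Epb4.1l5 (0.0861). With changes as small as those of Clock and Rora, small distances are easier to reach, so distances are not comparable between the 9 genes.

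Nfil3 was nearest to AC113925.2 (0.114), RGD1560556 (0.119) and Pdk4 (0.162), the kinase that shuts off pyruvate dehydrogenase in fasting. Pdk4 stood at 41.2, 41.6 and 35.9 FPKM (CL rats) against 23.7, 16.3 and 13.7 FPKM (FL2, FL5, FL12), so FL2 was again the highest FL rat. Nampt was nearest to Apoa5 (0.125), Fabp7 (0.147) and Rup2 (0.169). Apoa5, an apolipoprotein made by hepatocytes, stood at 168, 185 and 169 FPKM (CL rats) against 211, 89.4 and 79.7 FPKM (FL2, FL5, FL12). It shared with Nampt that FL2 exceeded every CL rat.

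The genes that peak with Dbp stood opposite to most of the 9. Of 11 such genes, 9 were upregulated, against 9.29% of all genes (Dbp, Per3, Ciart, Bhlhe41, Nr1d1, Usp2, Per2, Nr1d2 and Hlf, the last not with median scaling, at 0.83, or quantile normalization, at 0.73), Tef passed the adjusted p alone, and Per1 did not pass (log2 fold change 1.27, limma with Benjamini-Hochberg adjusted p = 0.113). None was downregulated with limma (0.935% of all genes), and 0 were lower at an unadjusted p under 0.05 (4.04% of all genes). Their median log2 fold change was 2.12, and it was 1.91 with median scaling, 1.62 with quantile normalization and 1.15 with a pseudocount of 1. With that pseudocount Hlf (0.88), Ciart (0.81) and Bhlhe41 (0.68), the last 2 near 0 in the CL rats, were under 2-fold. Ciart and Bhlhe41, with CL means of 0.0267 and 0.02 FPKM, passed the limit for testing only through the FL rats. Their 2 calls among the 9 are therefore not to be read against the share of all genes. Among genes averaging at least 1 FPKM, which leaves both out, the median of the list was 1.77. The E-box repressor gene nearest in kind to Bhlhe40, its paralog Bhlhe41, stood at 0.02, 0 and 0.04 FPKM (CL rats) against 0.53, 0.94 and 0.47 FPKM (FL2, FL5, FL12), where 0 means that it was listed at 0, and so lay far under the levels of Bhlhe40.

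**Figure D2:**
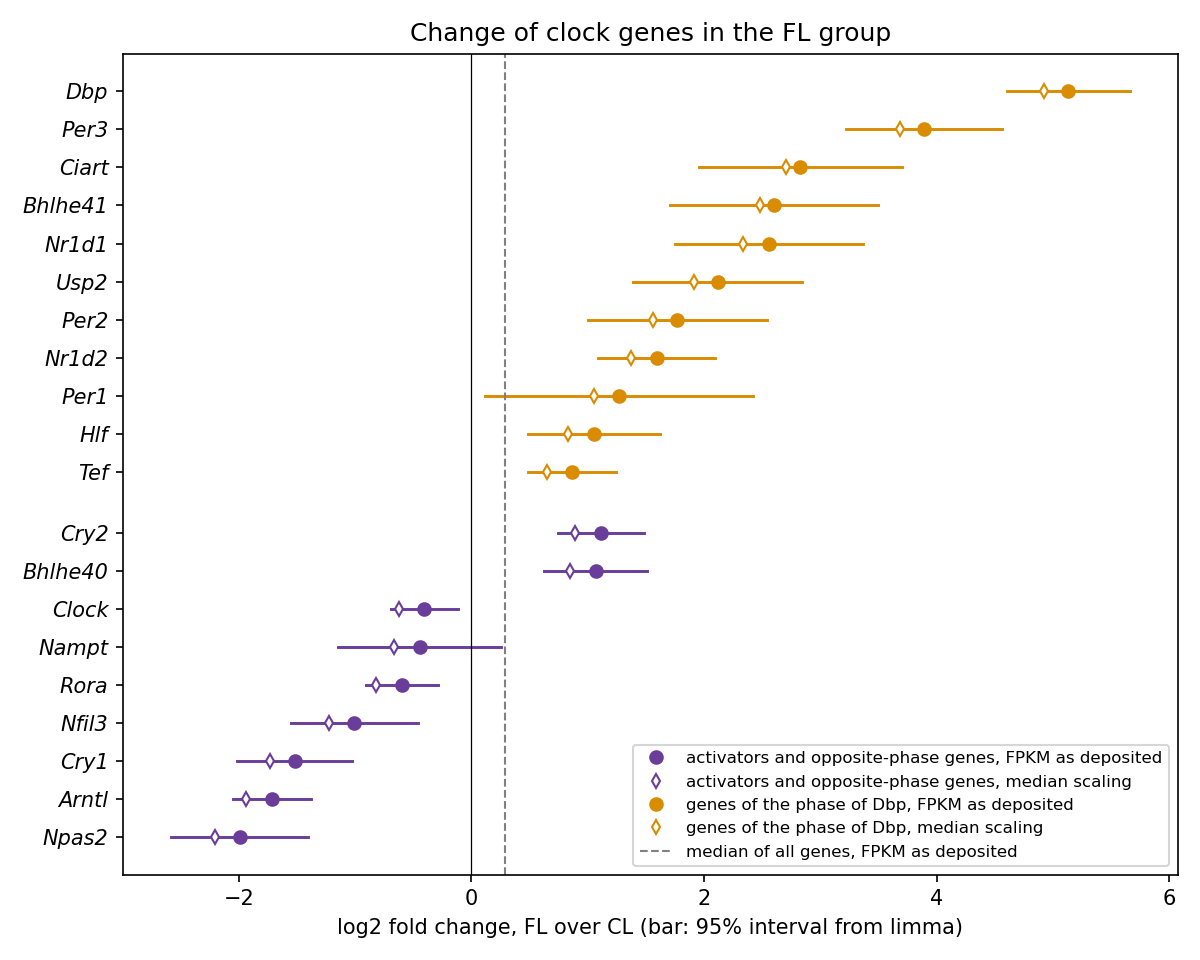
Log2 fold changes of FL over CL from limma for the 9 genes (purple) and the 11 genes of the phase of Dbp (orange), with 95% intervals, open diamonds for median scaling and a dashed line at the median of all genes (0.29). Npas2, Arntl, Cry1 and Nfil3 lie at -1.01 or below, while Cry2 (1.11) and Bhlhe40 (1.07) lie on the side of the genes of the phase of Dbp.

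Genes that modify or degrade clock proteins were close to all genes in their number of calls. The 11 listed were kinases, a phosphatase, ubiquitin ligase parts and an enzyme that removes ubiquitin. Of these, 10 were found (not Fbxl21) and 1 was upregulated (9.29% of all genes), Csnk1e, the casein kinase that phosphorylates PER proteins. Csnk1e rose from 2.44 ± 0.248 to 5.34 ± 1.58 FPKM (log2 fold change 1.06, limma with Benjamini-Hochberg adjusted p = 0.0184), was under 2-fold with median scaling (0.84), quantile normalization (0.72) and a pseudocount of 1 (0.86), and had adjusted p-values from 0.00502 to 0.0771 over the alternatives. Ppp1ca passed the adjusted p alone, with 23.6 ± 2.18 and 31.4 ± 2.16 FPKM (0.41, limma, Benjamini-Hochberg adjusted p = 0.0468), but not with median scaling (adjusted p = 0.242, in a range from 0.0344 to 0.242). The median of the list was 0.20 against 0.29 for all genes, and it was -0.03 with median scaling. Arntl2, the paralog of Arntl, stayed at 1.03 FPKM or less in each rat, with overlapping groups (limma, Benjamini-Hochberg adjusted p = 0.688).

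The promoters of the 9 genes were searched on both strands, in the RefSeq sequences from 250 bases before to 50 bases after the start of the gene (rat build GRCr8), for the elements named above. Sequences were matched for 7 of the 9 genes, with Arntl listed there as Bmal1 and a pair of starts for Clock, and not for Cry1 and Nampt. An E-box (CACGTG) was found in 1 of the 7, Bhlhe40, and in 6.42% of 33469 promoters of all genes. A D-box (TTATGTAA or TTACGTAA) was found in 0 of the 7 and in 1.01% of all promoters. The ROR element core (TAGGTCA or TGGGTCA) was found in 1 of the 7, Arntl, and in 6.60% of all promoters. Of the genes of the phase of Dbp, 10 of 11 had a promoter, 4 held an E-box (Bhlhe41, Ciart, Nr1d1 and Tef), 1 a D-box (Per2) and 0 a ROR element core. Such matches are descriptions of the letters in these windows, and elements farther from the start were not searched.

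The sequences before the start are shown for the genes with a match, because Arntl was lower and Bhlhe40 higher in the FL group. In Arntl (chr1:176766078-176766327, plus strand, GRCr8), the core TAGGTCA starts 16 bases before the start of the gene. A second, similar element was seen only on reading the sequence, and a wider form that takes in both, AGTAGGTNA, was then searched. This form overlaps the core, occurs in 0.604% of all promoters, and starts 54 and 18 bases before the start of Arntl, with 27 bases between the copies. In Bhlhe40 (chr4:143174200-143174449, plus strand, GRCr8), the E-box starts 220 bases before the start of the gene. Capitals mark the wider ROR element in Arntl and the E-box in Bhlhe40, and the sequences read 5′ to 3′.
Arntl: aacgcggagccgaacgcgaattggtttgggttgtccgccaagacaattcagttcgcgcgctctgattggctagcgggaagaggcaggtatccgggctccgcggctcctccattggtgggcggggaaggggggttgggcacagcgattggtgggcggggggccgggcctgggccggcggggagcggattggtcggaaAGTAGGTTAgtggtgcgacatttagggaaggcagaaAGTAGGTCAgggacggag
Bhlhe40: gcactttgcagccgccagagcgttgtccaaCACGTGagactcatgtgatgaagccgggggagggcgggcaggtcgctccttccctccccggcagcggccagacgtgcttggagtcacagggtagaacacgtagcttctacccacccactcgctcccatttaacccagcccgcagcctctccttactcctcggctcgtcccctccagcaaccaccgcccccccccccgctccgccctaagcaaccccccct

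Markers of the cell types in whole liver also differed between the groups, and fewer cells of a type cannot be told apart from less RNA per cell in such tissue. Of 8 hepatocyte markers, 0 were DEGs with limma (9.29% of all genes were upregulated and 0.935% downregulated). At an unadjusted p under 0.05, 2 were higher and 0 lower (31.5% and 4.04% of all genes). The groups did not overlap for 1 that was higher and 3 that were lower (35.7% and 4.78% of all genes), the last being Alb, Ttr and Hnf4a. The FPKM of the 8 markers summed to 43221, 40610 and 41260 (CL5, CL6, CL7) against 33585, 34229 and 32659 (FL2, FL5, FL12), with Alb the most abundant. For Alb, limma gave a log2 fold change of -0.38 with a standard error of 0.98. The rats lay much closer together, at 32272 ± 1010 FPKM for CL and 24803 ± 572 FPKM for FL. For Ttr the log2 fold change was -0.63 with a standard error of 0.42. With errors this large limma could not call differences of this size. The counts of 0 therefore do not decide whether Alb and Ttr were lower. The list median of -0.10 turned to 0.23 with quantile normalization, so its direction depended on the scaling. Hepatocyte markers were thus abundant in all 6 libraries of this liver tissue.

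Stellate cell or myofibroblast markers summed to 80.1, 86.5 and 78.6 FPKM (CL5, CL6, CL7) against 196, 534 and 483 FPKM (FL2, FL5, FL12), led by Col3a1. Of 9 such markers, 8 were tested and 4 upregulated (Col1a1, Col3a1, Des and Pdgfrb), against 9.29% of all genes. The excess was thus smallest in FL2. Macrophage markers summed to 110, 105 and 107 FPKM (CL5, CL6, CL7) against 234, 213 and 136 FPKM (FL2, FL5, FL12), and 3 of 7 were upregulated, against 9.29% of all genes (Marco, Cd68 and Csf1r, the last under 2-fold with median scaling at 0.91 and quantile normalization at 0.93). Clec4f, the most abundant of them in the CL group, overlapped between the groups, with FL2 and FL5 above and FL12 below the CL rats.

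Neutrophil markers were scarce, with sums of 0.53, 1.07 and 1.26 FPKM (CL5, CL6, CL7) against 5.56, 2.39 and 4.87 FPKM (FL2, FL5, FL12). Of 7, 5 were tested and 3 upregulated, against 9.29% of all genes (S100a8, the most abundant, S100a9 and Csf3r), while Mpo was listed at 0 in the 3 CL rats and in FL5, and Camp in all rats but CL5. These calls depended on the scaling, since with median scaling S100a8 and S100a9 did not pass (limma, Benjamini-Hochberg adjusted p = 0.0686 and 0.0821) and with quantile normalization none of the 3 did. With a pseudocount of 1, S100a9 (0.58) and Csf3r (0.61) were under 2-fold. Over the alternatives the adjusted p from limma ran from 0.0255 to 0.133 for S100a8, from 0.0396 to 0.200 for S100a9 and from 0.0151 to 0.0945 for Csf3r. Cycling cell markers summed to 2.39, 4.56 and 2.90 FPKM (CL5, CL6, CL7) against 4.04, 18.4 and 15.7 FPKM (FL2, FL5, FL12), with Birc5 and Mki67, the most abundant, upregulated among 5 (9.29% of all genes). Mki67 passed narrowly (limma, Benjamini-Hochberg adjusted p = 0.0478) and not with median scaling (0.0835), in a range from 0.00503 to 0.157, and with quantile normalization neither gene passed (0.0559 for Birc5, in a range from 0.00455 to 0.0791). In its sum FL2 was within the range of the CL rats for this list, unlike FL5 and FL12.

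Endothelial markers summed to 61.3, 63.3 and 55.8 FPKM (CL5, CL6, CL7) against 78.5, 69.0 and 75.0 FPKM (FL2, FL5, FL12). Of 6, 5 were found (not Pecam1), and Kdr was the most abundant in the CL group. Vwf alone was upregulated (9.29% of all genes), though not with median scaling (0.83), quantile normalization (0.71) or a pseudocount of 1 (0.85). Cholangiocyte markers, led by Epcam, summed to 5.38, 7.75 and 5.58 FPKM (CL5, CL6, CL7) against 5.38, 8.06 and 11.3 FPKM (FL2, FL5, FL12). Lymphocyte markers, led in the FL group by Cd79a, summed to 1.76, 1.64 and 2.35 FPKM (CL5, CL6, CL7) against 3.50, 3.16 and 1.98 FPKM (FL2, FL5, FL12). In each of these last lists 5 genes were tested and 0 were DEGs with limma (9.29% of all genes were upregulated and 0.935% downregulated). In each, 1 was higher at an unadjusted p under 0.05 (31.5% of all genes). For the cholangiocyte list this was Cftr, with a CL mean of 0.0867 FPKM, which passed the limit for testing only through the FL rats. It is therefore not to be read against the share of all genes. The part of the cell types in the values of the 9 clock genes was not tested.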

How the data were processed

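Total RNA of liver from 3 CL and 3 FL rats was sequenced after removal of ribosomal RNA, and each rat gave 1 library. The authors trimmed and mapped the reads (TopHat2), assigned those with a single position to genes, and deposited FPKM per gene and rat. A further scaling between rats is not stated. GRCh38 is named as the genome in the submitters' notes, although the gene identifiers are those of Ensembl for the rat. Rats were grouped by the names in their labels, and 2 further columns of values that match no sample were not used. Of 19616 genes, 519 were listed at 0 in all rats.

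FPKM are not counts, so limma was fitted to log2(FPKM + 0.1) with a variance trend, over the 14864 genes that averaged at least 0.1 FPKM, with Benjamini-Hochberg adjustment over all of them. DEGs had an adjusted p under 0.05 and at least a 2-fold change. Ratios within a rat were compared by a two-sided exact permutation test over the 20 assignments of rats to groups. No read totals were used, so no counting interval was given, and the error is the spread over 3 rats. The procedure was tested on simulated data.

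All 9 genes were named. From the lists, the DEGs were named where there were 10 or fewer, as were the genes of the 6 pairs, and for each of the 9 genes the 3 most alike. Other genes named for their role (Tef, Per1, Ppp1ca, Arntl2, Nmnat3, Sirt1, Sirt3, Vegfa, Ldha, Ttr and Hnf4a) were chosen after their values were seen. So were the markers Adgre1, Cd163, Mrc1, Cxcr2 and Cftr. Some genes of the lists are not reported here. The members and the lists were chosen with earlier results of these data known. The alternatives tried were pseudocounts of 1 and 0.01, no filter on low values, a filter at 1 FPKM, quantile normalization, median scaling (from 9201 genes that exceeded 1 FPKM throughout), a robust prior in limma, a prior without trend, calls by the adjusted p alone, and omission of each rat. The tools were limma 3.58.1 in R 4.3.3, and pandas 2.3.3, numpy 2.4.6 and matplotlib 3.10.9 in Python 3.11.15. Promoter sequences came from RefSeq (GRCr8), a build other than that of the FPKM values.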

Additional observations from a re-analysis of the deposited data

How the results depend on the processing

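The 9 genes kept the direction of their log2 fold changes under all 14 alternatives of scaling, pseudocount, filter, variance model and left-out rat, and of the 84 values of the 6 genes that were DEGs, 16 were no longer DEGs. The 60 values of the 6 ratios within rats kept their sign. Of 155 medians of gene lists, 40 moved by more than the spread between rats. The number of the 9 genes that were upregulated was 2, and 0 with a pseudocount of 1, with median scaling and with quantile normalization, where Cry2 and Bhlhe40 stayed under 2-fold. It was 1 to 2 with 1 rat left out. The number downregulated was 4, became 2 with a pseudocount of 1, and was 3 to 4 with 1 rat left out. Over all genes, 1381 were upregulated and 139 downregulated. These became 462 and 72 with a pseudocount of 1, 453 and 231 with quantile normalization, and 2518 and 288 with no limit on the fold change. The upregulated genes became 826 with median scaling and 854 when genes had to average at least 1 FPKM, where fewer genes were tested. With 1 rat left out, 682 (without FL5) to 1833 (without FL2) were upregulated and 80 (without CL6 or CL7) to 159 (without FL2) downregulated. The cause of the other shifts was not tested. No paired analysis was made, because the CL and FL rats were different animals and no pairing between them is stated. From the deposited values, the depth of the libraries could be read only relative to each other, and 3 rats per group limit the exact permutation test to p = 0.1. Each rat was sampled once, at a time of day not given in the sources used here, so rhythms were not measured.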
